A study of Mus musculus with 23 samples.

Results

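Trametinib and BGB-283 were each given alone, together or not at all in a mouse model of Nras-mutant melanoma, and the additivity of the 2 drugs on the T cell receptor (TCR) repertoire is described here. All 23 of the 23 libraries were used, since every library falls into a design of 2 drugs by presence or absence, read at D4 and at D11. The 4 arms were no drug (control, 3 libraries at D4 and 2 at D11), trametinib, BGB-283, and trametinib with BGB-283 (combination), the last 3 with 3 libraries on each day. Tumours came from the NIL line, a murine Nras Q61R melanoma line that had been given ultraviolet radiation to raise its mutation load, and all groups share that origin. The event that starts the count of days, the doses and the animal behind each library are absent from the labels. The p-values below thus cover the spread among these libraries, part of which may be technical. By its title the study is about durable control of tumours that resist MEK inhibition, and about T cells acting on them. The question is whether the repertoire under both drugs differs from what the arms with 1 drug give when put together.

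Trametinib is an inhibitor of MEK, the kinase that activates ERK, and BGB-283 (lifirafenib) is an inhibitor of RAF kinases, which act on MEK. T cells carry TCRs whose alpha (TRA) and beta (TRB) chains are built by joining V and J segments, and for beta also a D segment, around the CDR3 loop that does most of the antigen contact. A T cell that divides passes its chains on, so a large share of one clonotype marks an expanded clone and many small clonotypes mark a diverse infiltrate. The labels name the tissue as the melanoma line, whose own cells do not rearrange TCR genes. The assay read TCR transcripts alone, so markers of other cells could not be set beside these values.

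A clonotype is here a V segment, a J segment and a CDR3 amino acid sequence, and its size is its deposited count. The table held 35389 TRB and 29047 TRA clonotypes. TRB counts ran from 32534 to 320420 per library, and the mean was higher under each drug than in control. The interaction of TRB counts was 0.04 on the log2 scale (SE 0.63, 95% interval -1.29 to 1.37), with differences from control of 0.82 for trametinib, 0.98 for BGB-283 and 1.84 for the combination. In bulk RNA, fewer cells of a type and less RNA per cell cannot be told apart. The interaction was combination minus trametinib minus BGB-283 plus control, taken within each day and averaged over D4 and D11. On the log2 scale 0 means that the fold of the combination is the product of the single-drug folds, and on a percentage scale that the shifts add. Each interaction was tested with a two-sided synchronised permutation test that enumerates all 13448 arrangements, with intervals from the same test and Benjamini-Hochberg adjustment over 16 values (8 measures in each chain).

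The mean number of different clonotypes was higher under each drug than in control, and the combination reached close to the product of the single-drug folds. TRB clonotypes detected numbered 214, 416 and 696 in control at D4 and 298 and 749 at D11. With trametinib they were 733, 1456 and 1657 at D4 and 2194, 931 and 1533 at D11. With BGB-283 they were 833, 1370 and 1318 at D4 and 436, 1168 and 1062 at D11. Under both drugs they were 3584, 5172 and 3718 at D4 and 2256, 4328 and 1074 at D11. At D4 every combination library lay above every library of the other arms, while at D11 its lowest library lay inside the range of the single drugs.

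Against control the fold of TRB clonotypes detected was 3.08 for trametinib, 2.23 for BGB-283 and 6.93 for the combination, and the single-drug folds multiply to 6.87. The interaction was therefore 0.01 on the log2 scale (SE 0.60, 95% interval -1.28 to 1.31, permutation p = 0.985, adjusted p = 0.985). It was 0.23 at D4 and -0.21 at D11, and the difference between days did not pass (permutation p = 0.718). The interval is wide: a combination reaching from 0.412 to 2.48 times the product of the folds lies within it. At D4 the geometric mean of the combination was 4100.0 TRB clonotypes against 3501 from the product, and at D11 it was 2189 against 2523. TRA gave the same picture, with folds of 2.59, 1.97 and 5.24 and an interaction of 0.04 (SE 0.56, 95% interval -1.17 to 1.27, permutation adjusted p = 0.985).

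Depth differs between the arms, so clonotypes were also counted after every library was thinned to the same number of counts, 32534 for TRB and 37504 for TRA. TRB clonotypes at equal counts averaged 422 in control, 1194 with trametinib, 1054 with BGB-283 and 3088 under both drugs at D4. At D11 the means were 518, 1472, 828 and 2026. The order of the arms was kept on both days. The TRB interaction was -0.18 (SE 0.55, 95% interval -1.37 to 1.00, permutation p = 0.739, adjusted p = 0.896) and the TRA interaction -0.14 (SE 0.49, 95% interval -1.22 to 0.94, permutation adjusted p = 0.896). Without the 2 shallowest control libraries these were 0.36 and 0.33, neither past the threshold.

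**Figure D1:**
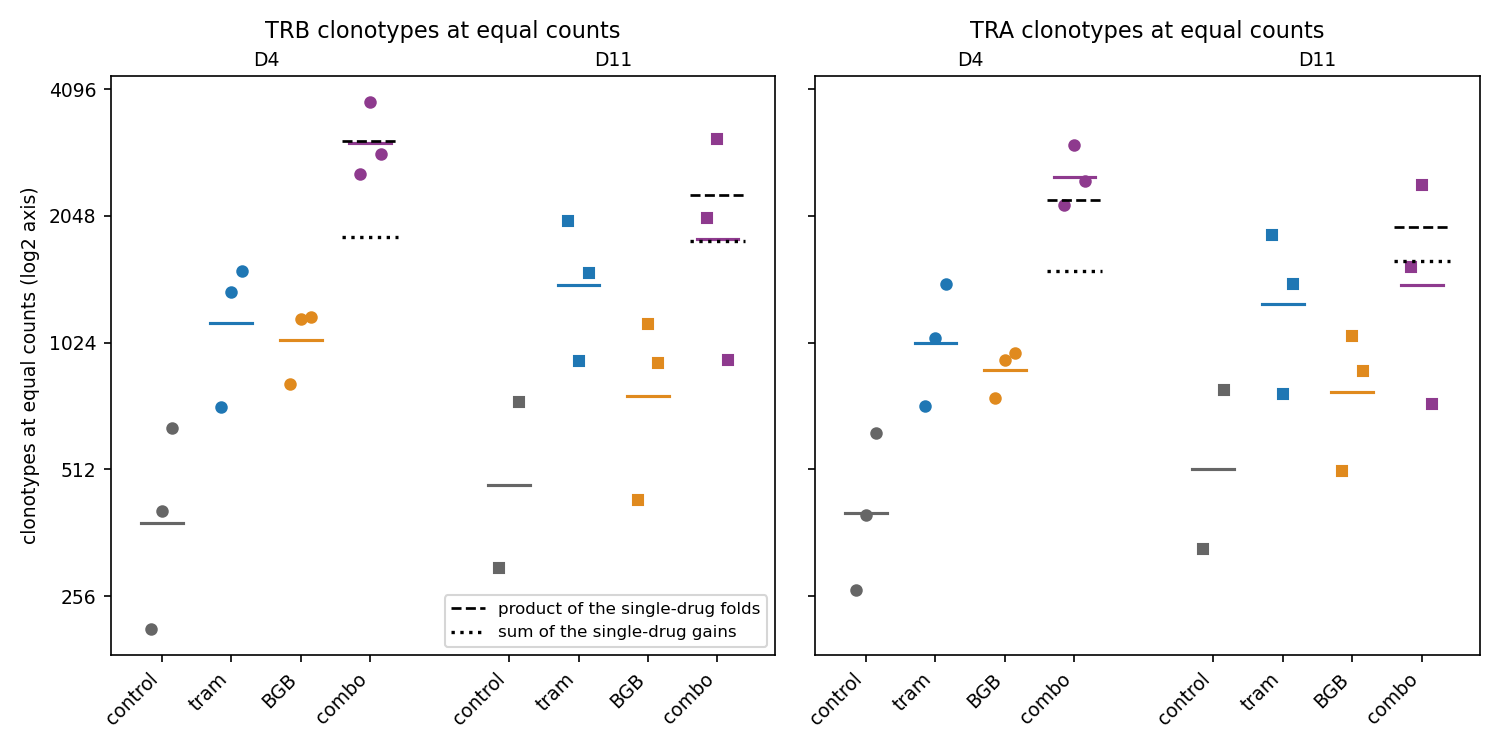
Clonotypes at equal counts in each library (log2 axis) for TRB on the left and TRA on the right, by arm (tram, trametinib; BGB, BGB-283; combo, combination) and day, with D4 as circles, D11 as squares and the geometric mean as a coloured line. The dashed line is the product of the single-drug folds and the dotted line the sum of the single-drug gains: for TRB at D4 the combination (3046) sits on the product (3086) and above the sum (1826), and at D11 (1805) it sits below the product (2292).

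Deposited counts are not molecules, and the counts that one molecule may hold bear on this measure. Counts pile up at 20, and among TRB counts of 20 or less the share at exactly 20 was lower by 9.73 percentage points with trametinib, by 18.4 with BGB-283 and by 29.7 under both drugs than in control. Its interaction was small, at -1.58 points (95% interval -20.6 to 17.6). An estimate of molecules was therefore made as each count over 20, rounded up. The divisor is the same in every arm although the share at exactly 20 was not, so the estimate may be off by unlike amounts between arms, which was not tested. At equal estimated molecules the TRB folds against control were smaller, at 2.08 for trametinib, 1.42 for BGB-283 and 2.13 for the combination, against a product of 2.95. On this count the combination differed from trametinib alone by 0.04 (log2) over both days, an average of opposite days. The geometric mean was 787 under both drugs against 565 with trametinib at D4, with all 3 combination libraries above all trametinib libraries, and 586 against 775 at D11, with 1 of 3 below them all and none above. TRA moved alike, at 645 against 525 and 538 against 706. The interaction was -0.47 for TRB (SE 0.30, 95% interval -1.12 to 0.16, permutation p = 0.145, adjusted p = 0.464) and -0.36 for TRA (SE 0.25, 95% interval -0.93 to 0.17, permutation adjusted p = 0.510). Both lie below 0 on both days, and neither passed the threshold.

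Additivity of numbers is a different question from additivity of folds, and the answer depended on the scale. Counted as numbers, TRB clonotypes detected exceeded the sum of the single-drug gains by 1389.6 (95% interval -13.3 to 2889, permutation p = 0.0527, unadjusted). The excess was 2144 at D4, where the mean of the combination was 4158 and the sum gave 2014, and 635 at D11. The D4 value has p = 0.0122 by the exact permutation test, the smallest that its 164 arrangements allow. At equal counts the TRB excess was 753 (permutation p = 0.147), and at equal estimated molecules it was -100.1 (permutation p = 0.390). For TRA the values were 1066, 503 and -86.6 in the same order, none with an unadjusted permutation p below 0.05 over both days. At D4 alone the excess in TRB at equal counts (1263), in TRA detected (1944) and in TRA at equal counts (1039) each had that smallest p of 0.0122 in the permutation test. A combination above the sum was thus seen in deposited counts, at D4 for the most part, and not in estimated molecules.

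The sizes of clones went another way. With trametinib alone the 10 largest TRB clonotypes held less than in control on both days. With BGB-283 alone and under both drugs their mean share was below control at D4 and above it at D11. The share of TRB counts in the 10 largest clonotypes was 46.2%, 57.7% and 59.0% in control at D4 and 45.1% and 45.7% at D11. Trametinib gave 35.0%, 39.4% and 36.4% at D4 and 29.5%, 18.6% and 19.7% at D11. All 6 trametinib libraries lay below all 5 control libraries. BGB-283 gave 34.0%, 62.2% and 47.7% at D4 and 50.2%, 43.6% and 63.4% at D11. The combination gave 49.6%, 31.0% and 44.9% at D4 and 46.0%, 52.9% and 67.9% at D11. The last 2 arms covered nearly the same range as each other, and at D11 all 3 combination libraries lay above all 3 trametinib libraries. Against control, 2 of the 3 combination libraries lay below all control libraries at D4 and all 3 lay above them at D11. The means were 41.8% against 54.3% at D4 and 55.6% against 45.4% at D11.

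The mean share of the 10 largest TRB clonotypes was 50.7% ± 6.98 (SD, n = 5) in control, 29.8% ± 8.82 with trametinib, 50.2% ± 11.2 with BGB-283 and 48.7% ± 12.03 with both (n = 6 each). The difference from control, averaged over days, was -20.1 points for trametinib, 0.33 for BGB-283 and -1.15 for the combination. The values for BGB-283 and for the combination are each an average of opposite days. The interaction was 18.6 points (SE 7.59, 95% interval 2.05 to 34.7), 11.2 at D4 and 26.0 at D11. Its permutation p was 0.0309 and its p adjusted over the 16 values 0.247, so it did not pass. Leaving out BGB-283 D4 replicate 2 alone, the library with the largest single clonotype, gave 22.1 points with a permutation adjusted p of 0.0460. For TRA the interaction was 9.29 points (95% interval -6.73 to 24.98, permutation adjusted p = 0.526). The mean share of the 10 largest TRA clonotypes was 49.7% ± 10.7 (SD, n = 5) in control, 33.3% ± 8.30 with trametinib, 54.2% ± 10.1 with BGB-283 and 48.0% ± 8.98 with both (n = 6 each).

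The number of top clonotypes that together hold 50% of the counts gives the same contrast between trametinib and the combination as a number of clones. For TRB it was 13, 7 and 7 in control at D4 and 15 and 18 at D11. With trametinib it was 43, 24 and 21 at D4 and 60, 107 and 152 at D11, above every control library. With BGB-283 it was 46, 4 and 12 at D4 and 10, 26 and 7 at D11. With both drugs it was 11, 37 and 17 at D4 and 15, 7 and 4 at D11. At D11 the lowest trametinib library was thus above the highest combination library, while at D4 the combination library at 37 lay inside the range of trametinib.

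Relative to control this number was 4.42-fold for trametinib, 1.06-fold for BGB-283 and 1.00-fold for the combination in TRB. The values for BGB-283 and for the combination each average opposite days. At D4 the geometric mean was 13.0 with BGB-283 and 19.1 under both drugs, against 8.60 in control. At D11 it was 12.2 with BGB-283 and 7.49 under both drugs, against 16.4 in control. The combination was 2.14 below trametinib and 0.08 below BGB-283 on the log2 scale. The interaction was -2.22 (SE 0.80, 95% interval -3.97 to -0.44, permutation p = 0.0177, adjusted p = 0.247). It was -1.15 on D4 and -3.30 on D11. At D11 the product of folds gave 73.7 clonotypes and the combination had a geometric mean of 7.49. The inverse Simpson index, the number of equally large clonotypes that would give the same chance of drawing one clonotype in 2 draws, moved alike: -1.32 on both days together (permutation p = 0.0692, adjusted p = 0.369), -0.38 at D4 and -2.27 at D11. In TRA both were closer to 0, at -0.87 for the number holding 50% of the counts and -0.42 for the index. Without BGB-283 D4 replicate 2 both TRB values passed, at -2.65 and -1.76 (permutation adjusted p = 0.0460 each). The TRA index had an interaction of 0.55 at D4 and -1.39 at D11, and leaving out 1 library moved it between -0.88 and -0.14.

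Clonality runs from 0, all clonotypes equal, to 1, a single clonotype. In TRB at equal counts it averaged 0.293 ± 0.0793 (SD, n = 5) in control, 0.204 ± 0.0633 with trametinib, 0.330 ± 0.0984 with BGB-283 and 0.346 ± 0.0661 with both (n = 6 each). The interaction was 0.0978 (95% interval -0.0398 to 0.230, permutation adjusted p = 0.464), and in TRA 0.0413 (95% interval -0.0973 to 0.176, permutation adjusted p = 0.832), where leaving out 1 library gave 0.0152 to 0.0759. TRA clonality averaged 0.286 ± 0.0907 (SD, n = 5) in control, 0.228 ± 0.0676 with trametinib, 0.366 ± 0.0913 with BGB-283 and 0.356 ± 0.0546 with both (n = 6 each). The share of the single largest TRB clonotype had an interaction of 6.01 points (permutation adjusted p = 0.719), from -0.0795 at D4 to 12.1 at D11, and leaving out 1 library gave 2.63 to 11.3 points. For TRA it was -4.30 points (permutation adjusted p = 0.832). The largest TRA clonotype averaged 21.0% ± 14.2 (SD, n = 6) of counts with BGB-283 and 11.8% ± 5.14 (SD, n = 5) in control. None of the 16 interactions passed, and 2 of them, the share of the 10 largest and the number holding 50% of the counts in TRB, had an unadjusted permutation p below 0.05.

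**Figure D2:**
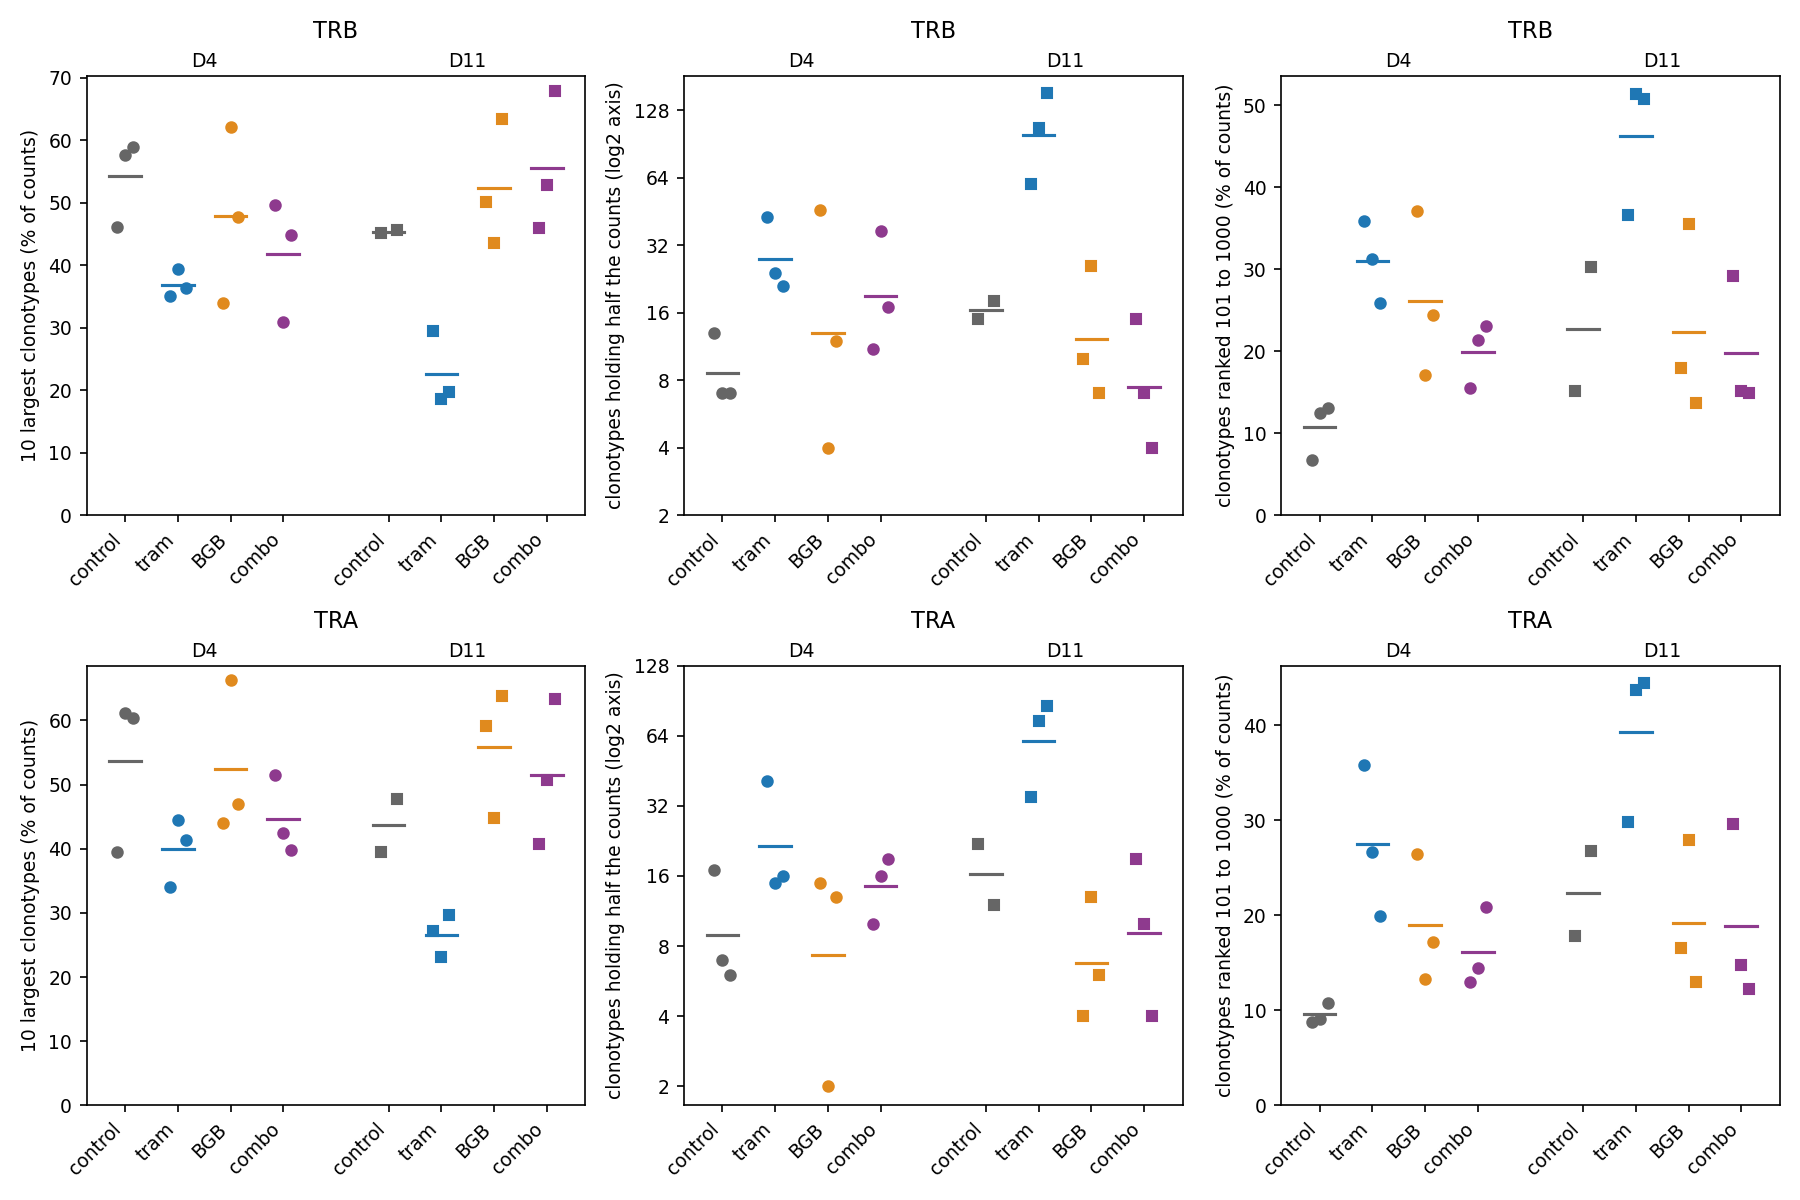
Clone sizes in each library for TRB (top) and TRA (bottom): share of counts in the 10 largest clonotypes, number of top clonotypes holding 50% of the counts (log2 axis), and share of counts in the middle ranks (past 100 and up to 1000). Circles are D4, squares D11, and lines the mean (geometric mean in the middle). Trametinib stands apart in all 3 TRB panels at D11, with 60 to 152 clonotypes holding 50% of the counts against 4 to 15 under both drugs.

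To see where in the ranking the arms part, the TRB counts of each library were split by clonotype rank. These shares belong to a second family of 42 values, added after the first results were seen and adjusted over 42. In the middle ranks, those past 100 and up to 1000, control libraries had 6.78%, 12.4% and 13.1% of TRB counts at D4 and 15.2% and 30.3% at D11. Trametinib libraries had 35.9%, 31.3% and 25.9% at D4 and 36.7%, 51.4% and 50.8% at D11. BGB-283 libraries had 37.1%, 17.1% and 24.4% at D4 and 17.9%, 35.5% and 13.7% at D11. Combination libraries had 15.6%, 21.3% and 23.1% at D4 and 29.1%, 15.2% and 14.99% at D11. On each day every combination library lay below every trametinib library.

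Averaged over days, trametinib alone added 21.9 points to this share, BGB-283 alone 7.53 and the combination 3.13. The days differed for BGB-283 and for the combination. At D4 all 3 libraries of each lay above all control libraries. At D11 1 of 3 BGB-283 libraries lay above all control libraries and 1 below them all, and 2 of 3 combination libraries lay below them all. The interaction was -26.3 points (SE 6.73, 95% interval -40.9 to -11.9), with -26.5 at D4 and -26.1 at D11. Its permutation p was 0.00119 and its adjusted p 0.04997, just within the 0.05 threshold. Leaving out single libraries moved it between -30.1 and -22.5 points, and 16 of the 23 such values had an adjusted p over 0.05. In estimated molecules it was -27.4 (permutation adjusted p = 0.0265). Of the 6 alternatives that left out no single library, 4 ended the call. With counts under 20 removed the value was -25.3 (permutation adjusted p = 0.0687), with all 4 arm labels permuted within a day the permutation adjusted p was 0.309, and with a replicate block, whose p cannot go below 0.0625, the value was -26.1. Control libraries had 214 to 749 TRB clonotypes in all, so this band was only partly filled in them, and without the 2 shallowest of them, the fourth of these alternatives, the value was -21.5 (permutation adjusted p = 0.311). In TRA it was -19.0 points (95% interval -31.6 to -6.35, permutation p = 0.00796, adjusted p = 0.167), and it passed without control D11 replicate 2 (-21.3, permutation adjusted p = 0.0457) or without combination D11 replicate 1 (-21.7, permutation adjusted p = 0.0334).

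The other bands hold the rest of the counts. All bands of a library add up to its whole, so a negative interaction in the middle ranks is balanced by the sum over the other bands. Their values are thus no separate evidence of a shift. Clonotypes past rank 1000 held none of the TRB counts in control, 0% to 8.34% with trametinib, 0% to 0.942% with BGB-283 and 0.119% to 20.7% with both. No control library listed as many as 1000 TRB clonotypes, so this share was 0 in control whatever the clone sizes. All bands were taken on counts not thinned to equal depth, so the share past rank 1000 depends on how many clonotypes a library lists. The interaction past rank 1000 was 6.77 points (95% interval -0.43 to 14.0, permutation adjusted p = 0.298), and without combination D11 replicate 3 it passed at 8.48 (permutation adjusted p = 0.0473). Ranks 2 to 10 had an interaction of 12.6 points in TRB and 13.6 in TRA (permutation adjusted p = 0.298 and 0.185, the latter 15.8 points and 0.0334 without combination D11 replicate 1), and ranks 11 to 100 had 0.95 points in TRB. All clonotypes past rank 100 together held on average 15.6% of TRB counts in control, 42.0% with trametinib, 24.7% with BGB-283 and 30.4% under both drugs, an interaction of -19.5 points given without a test. Clonotypes of at least 1% of the TRB counts had an interaction of 23.9 points (95% interval 4.95 to 42.7, permutation p = 0.0176, adjusted p = 0.185). In 5 of the 6 combination libraries clonotypes past rank 1000 held 7.84% or more of the TRB counts. In those libraries the 10 largest held 31.0% to 52.9%, against 45.1% to 59.0% in control, over both days. The remaining library, combination D11 replicate 3, had 0.119% past rank 1000, and its 10 largest held more than in any control library. The days went opposite ways: in the share of the 10 largest, 2 of 3 combination libraries lay below all control libraries at D4, and all 3 lay above them at D11.

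**Figure D3:**
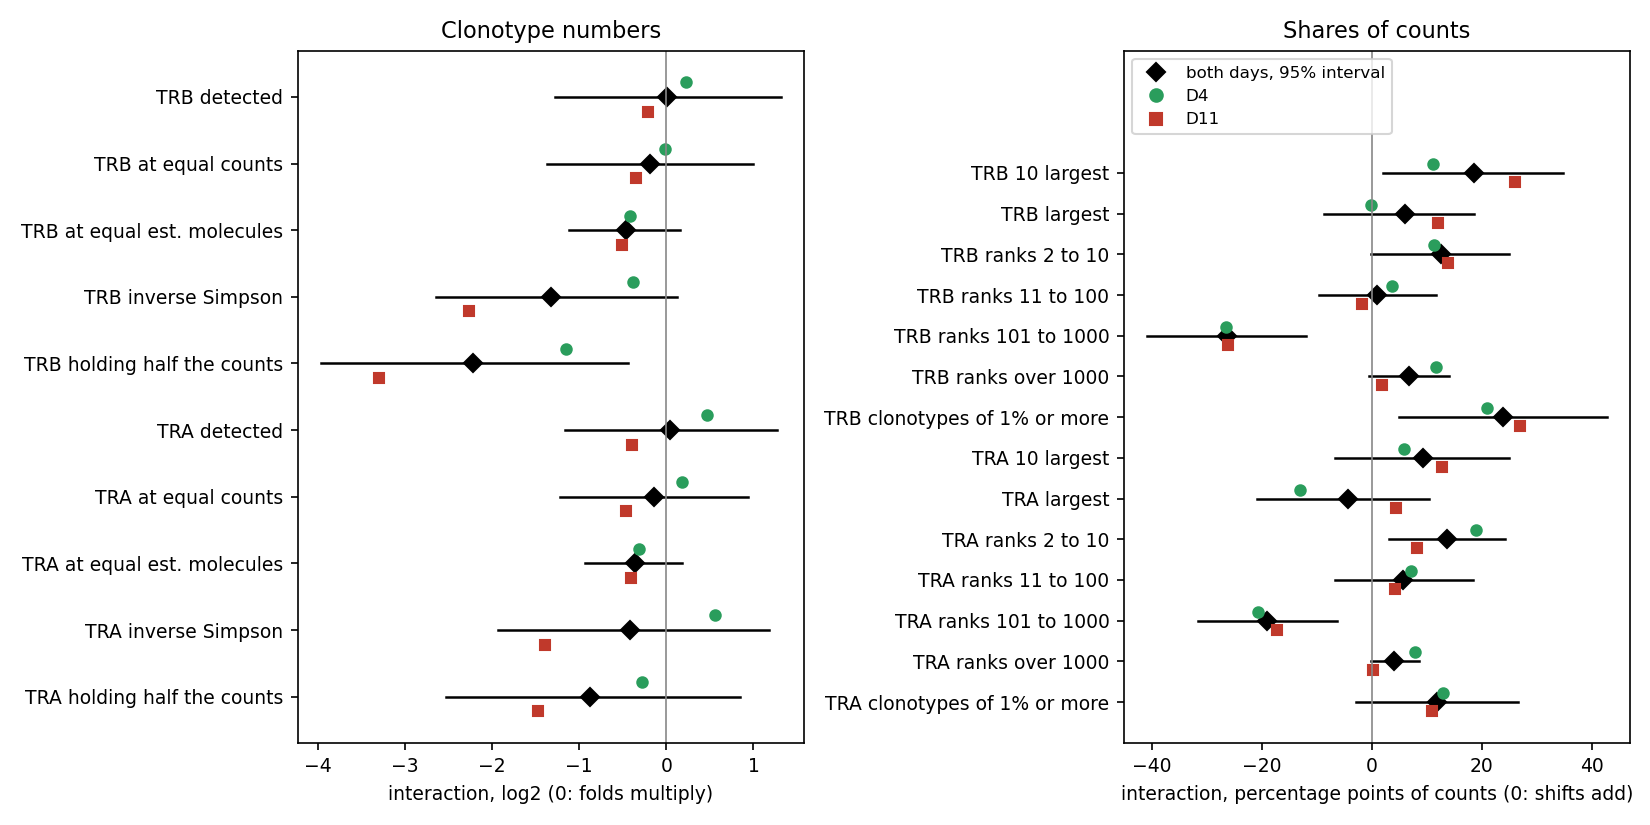
Interaction of the drugs for clonotype numbers (left, log2) and shares of counts (right, percentage points), with diamonds and lines for both days and the 95% permutation interval, circles for D4 and squares for D11. The intervals of TRB and TRA clonotypes detected centre on 0 (0.01 and 0.04), and that of the middle ranks of TRB (past 100 and up to 1000) lies from -40.9 to -11.9.

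The largest TRB clonotype of each arm shows what sits at the top, and each was large in a single library. The largest TRB clonotype of control, TRBV12-1 joined to TRBJ2-7, held 30.8% of the TRB counts of control D4 replicate 3 and was found in no other library. That of trametinib, TRBV3 joined to TRBJ2-5, held 14.5% in trametinib D4 replicate 1 and was found in 1 other library, combination D11 replicate 3, at 5 counts. That of BGB-283, TRBV16 joined to TRBJ2-3, held 43.6% in BGB-283 D4 replicate 2 and 2.34% in BGB-283 D11 replicate 3. That of the combination, TRBV19 joined to TRBJ1-1, held 24.1% in combination D11 replicate 3 and was found in no other library.

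The 2 libraries that shared the largest TRB clonotype of the BGB-283 arm also shared the largest TRA clonotype of that arm. It was TRAV14-2V14N-2 joined to TRAJ42, at 46.3% and 2.43%. That TRA clonotype was found in 6 libraries, at 1.14% or less in the other 4. The largest TRA clonotype of control, TRAV13D-1 joined to TRAJ5, held 18.8% in control D4 replicate 3. It was found in 16 libraries, with some in every arm. Those of trametinib (TRAV7D-2 joined to TRAJ11, 12.1%) and of the combination (TRAV6D-5V6N-5 joined to TRAJ39, 28.4%) were each found in 1 library. Every pair of libraries shared few clonotypes: the median over 253 pairs was 1.03% of the TRB and 2.83% of the TRA clonotypes of the smaller library.

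In every arm most clonotypes were found in no other arm. The 6 combination libraries held 19688 TRB clonotypes, of which 96.0% were found in no other arm. In control it was 90.5% of 2346, with trametinib 92.7% of 8391 and with BGB-283 92.0% of 6087. For TRA it was 90.4% in the combination, 81.7% in control, 84.9% with trametinib and 83.6% with BGB-283. With trametinib the combination shared 439 TRB clonotypes, 2.23% of its own and 5.23% of those of trametinib. With BGB-283 it shared 339, 1.72% of its own and 5.57% of those of BGB-283. The TRB clonotype found most widely, 1 that joins TRBV13-2 to TRBJ1-1, was in 15 libraries, 5 of them combination, and reached 1.99% in combination D4 replicate 1. These shares grow with the number of clonotypes that a library lists, and no test was made of them.

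V and J segments show whether segment use under both drugs differs from what the single drugs give when put together. Segment counts were tested with edgeR's quasi-likelihood test as the same interaction, across all segments of a table. With both days together 0 of 24 TRBV (0%), 0 of 12 TRBJ (0%), 0 of 118 TRAV (0%) and 0 of 41 TRAJ segments (0%) passed an adjusted p of 0.05, and none passed in edgeR at D4 or D11 alone. An unadjusted p below 0.05 was reached by 2 TRBV (8.33%), 1 TRBJ (8.33%), 15 TRAV (12.7%) and 3 TRAJ segments (7.32%). DESeq2 called 3 TRBV, 0 TRBJ, 12 TRAV and 2 TRAJ segments. The biological coefficient of variation was 0.935 for TRBV, 0.576 for TRBJ, 1.32 for TRAV and 0.931 for TRAJ, a large spread between libraries of 1 group.

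TRBV5 and TRBV26 had the lowest p among TRBV segments. TRBV5 was 4.89%, 0.293% and 2.69% of TRB counts in control at D4 and 3.4% and 15.5% at D11, and with trametinib 1.08%, 1.35% and 1.37% at D4 and 2.06%, 3.02% and 2.14% at D11. With BGB-283 it was 2.47%, 0.0264% and 2.09% at D4 and 2.03%, 6.01% and 3.62% at D11, and with both drugs 2.49%, 8.05% and 3.66% at D4 and 5.54%, 7.58% and 11.6% at D11. Every combination library lay above every trametinib library of its day. Against control the log2 difference was -1.51 with trametinib, -1.03 with BGB-283 and 0.33 under both drugs (edgeR adjusted p = 0.406, 0.467 and 0.825). The combination was thus close to control, with the mean of each single drug below it. The interaction was 2.87 (log2, SE 0.98, edgeR adjusted p = 0.115), 2.68 at D4 and 3.06 at D11. The permutation test on log2 odds gave 3.18 with an unadjusted p of 0.0204. With each clonotype counted once, so that clone size plays no part, it was 1.14 (edgeR adjusted p = 0.0991). With TMM factors it passed at 3.28 (edgeR adjusted p = 0.0389), and with DESeq2 at 3.06 (adjusted p = 0.0113).

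In the combination at D11 TRBV5 rested largely on a single clonotype in each library. At D11 its largest clonotype made up 51.3%, 77.5% and 78.7% of the TRBV5 counts of the 3 libraries, with a different CDR3 in each. With trametinib at D11 the largest made up 14.3%, 23.2% and 10.4%. The libraries under both drugs listed 45 to 144 TRBV5 clonotypes each.

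TRBV26 went the other way: each drug alone had more of it than control at D4 and the combination did not add to that. It was 0.663%, 0.0717% and 0.185% of TRB counts in control at D4 and 1.1% and 1.5% at D11. With trametinib it was 3.96%, 1.89% and 2.11% at D4 and 2.23%, 1.36% and 1.17% at D11. With BGB-283 it was 1.97%, 1.69% and 0.782% at D4 and 0.889%, 1.77% and 4.08% at D11. With both drugs it was 1.18%, 1.72% and 0.879% at D4 and 0.998%, 1.46% and 0.718% at D11. At D4 all control libraries lay below all treated ones, and at D11 the arms overlapped. The interaction was -2.36 (log2, SE 0.85, edgeR adjusted p = 0.115), and with each clonotype counted once -1.26 (edgeR adjusted p = 0.0727). The permutation test on log2 odds gave -2.48 with an unadjusted p of 0.00372. With DESeq2 the interaction passed at -2.34 (adjusted p = 0.0113).

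Among TRBJ segments TRBJ1-4 had the lowest p, at -1.43 (log2, SE 0.67, edgeR adjusted p = 0.428). It made up 7.43% ± 4.56 (SD, n = 5) of TRB counts in control, 8.84% ± 2.61 with trametinib, 9.25% ± 6.33 with BGB-283 and 4.45% ± 1.59 with both (n = 6 each). The arms overlapped. With each clonotype counted once the interaction was -0.10, close to 0 and with an edgeR adjusted p of 0.901. In BGB-283 D11 replicates 1 and 3, its highest libraries at 19.1% and 14.6%, the largest clonotype made up 81.0% and 78.7% of TRBJ1-4 counts.

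**Figure D4:**
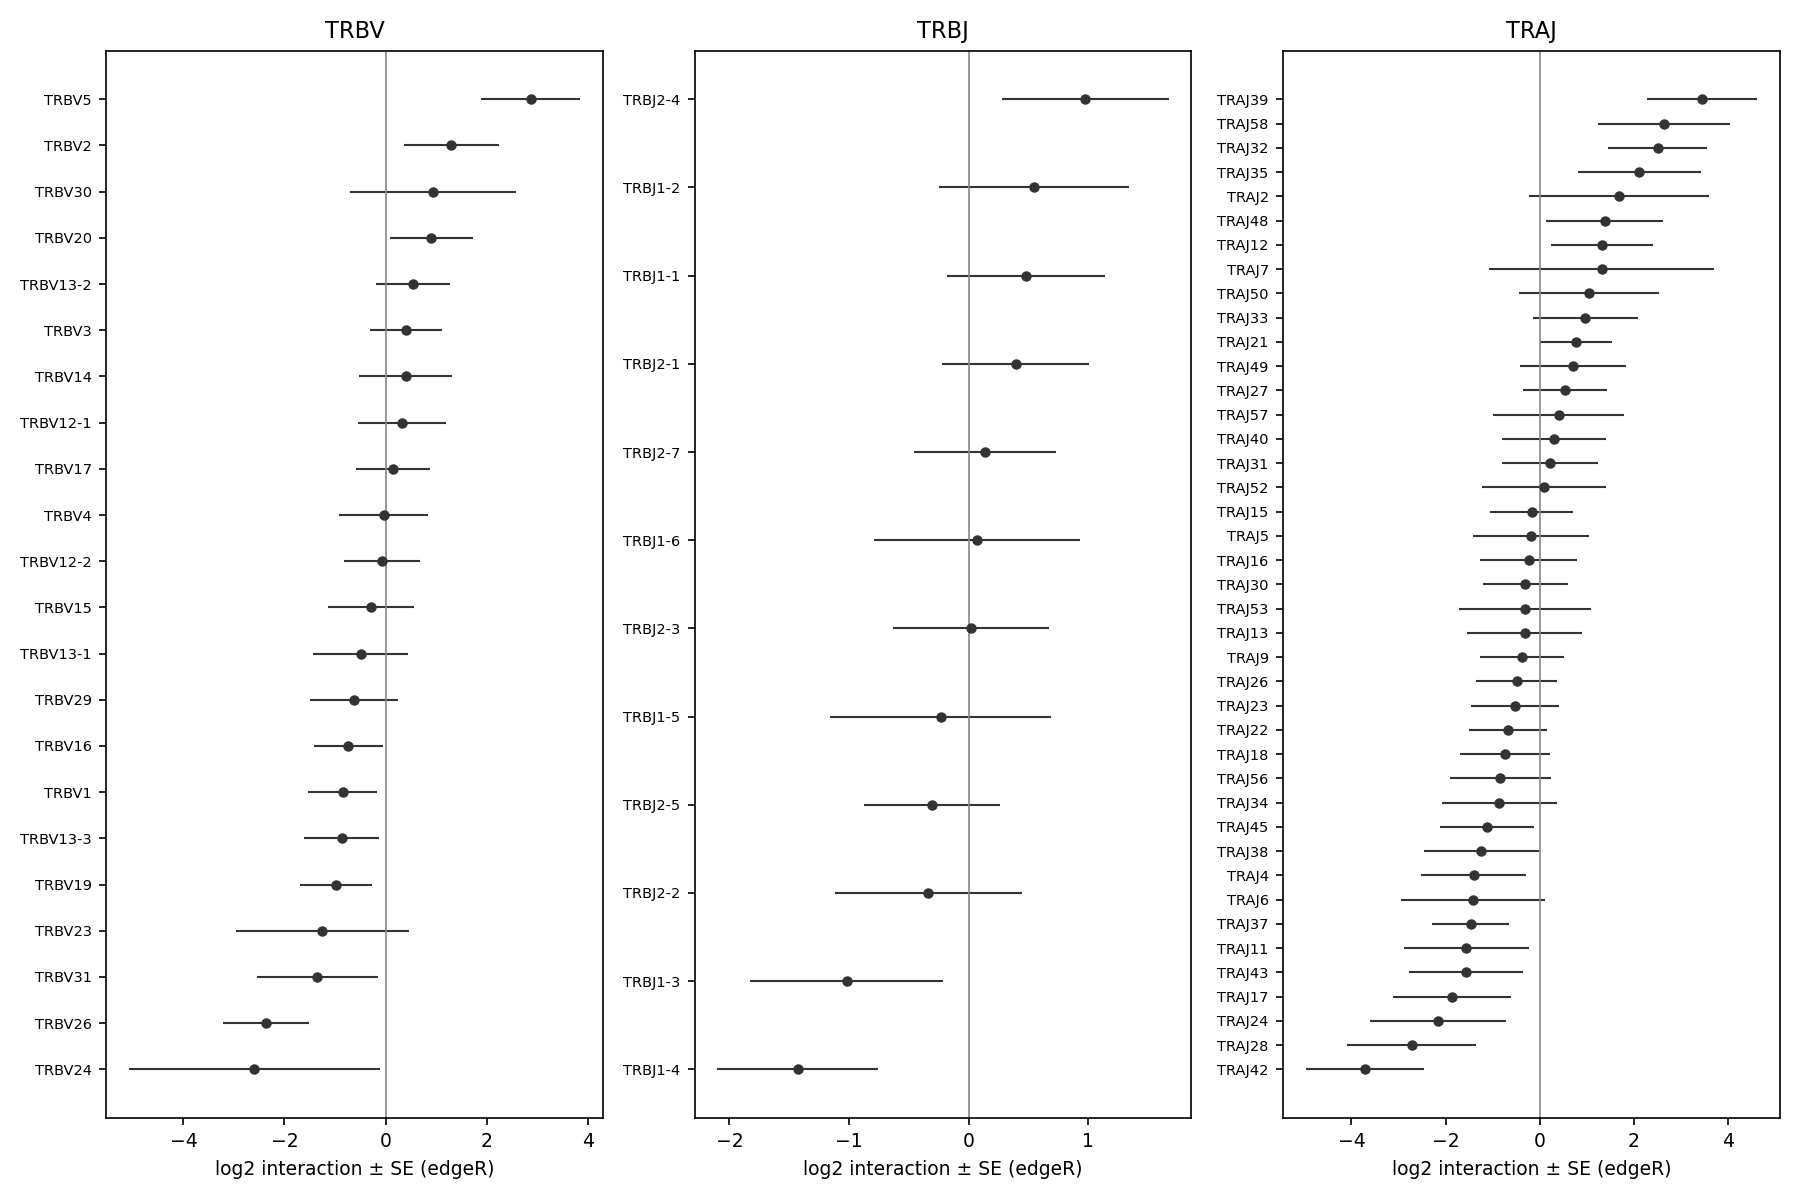
Interaction (log2) with its SE from edgeR for TRBV, TRBJ and TRAJ segments, ordered by value; 22 of 24 TRBV segments are drawn, since the other 2 have no usable SE. TRBV5 (2.87) and TRBJ1-4 (-1.43) lie at the ends of their panels, TRBV26 (-2.36) near the low end of its own, and no segment passed the threshold.

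Among TRAJ segments the lowest p values were those of TRAJ39 at 3.45 (SE 1.17) and TRAJ42 at -3.71 (SE 1.26), both log2 with an edgeR adjusted p of 0.137. The permutation test on log2 odds gave 2.48 for TRAJ39 and -2.52 for TRAJ42, with an unadjusted p of 0.0635 and 0.0881. In that test TRAJ7 (5.62) and TRAJ24 (-4.04) lay further out. TRAJ39 was 29.4% of TRA counts in combination D11 replicate 3 and 1.17% to 1.61% in the other 5 combination libraries. In that library 96.7% of TRAJ39 counts were 1 clonotype, joined to TRAV6D-5V6N-5. BGB-283 libraries had 0.196% to 1.03% of TRAJ39 and trametinib libraries 0.576% to 3.36%. TRAJ42 was 50.9% in BGB-283 D4 replicate 2 and 4.31% or less in the other 22 libraries, and the largest clonotype of that library, described above, made up 91.0% of it. The interaction did not come from the day of that library alone: it was 2.95 at D4 and 3.95 at D11 for TRAJ39. For TRAJ42 it was -3.70 at D4 and -3.72 at D11. Leaving out 1 library gave 1.96 to 3.81 for TRAJ39 and -4.11 to -1.67 for TRAJ42. With each clonotype counted once the interactions were 0.49 for TRAJ39 and -0.76 for TRAJ42 (edgeR adjusted p = 0.873 and 0.847). TRAJ32 followed at 2.51 (SE 1.06, edgeR adjusted p = 0.349).

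In TRAV the lowest p belonged to TRAV7N-4, whose interaction was negative (edgeR adjusted p = 0.0840). No counts were listed for it in 4 of the 5 control libraries, and it made up 0.107% of TRA counts in control D4 replicate 3, so its fitted fold of -9.23 (log2) depends on the prior count and is no bound. All 18 treated libraries listed it, with 0.274% to 1.18% under trametinib, 0.00494% to 4.30% under BGB-283 and 0.119% to 1.69% under both. The combination thus stood in the range of the single drugs. Every arm with a drug also listed more clonotypes of all kinds than control, and the part this has in the zeros was not tested. Of the 143 TRAV names 68 match a gene symbol of the mouse reference annotation, and the rest are joint names of near-identical copies, so values of single copies such as TRAV7N-4 are uncertain.

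**Figure D5:**
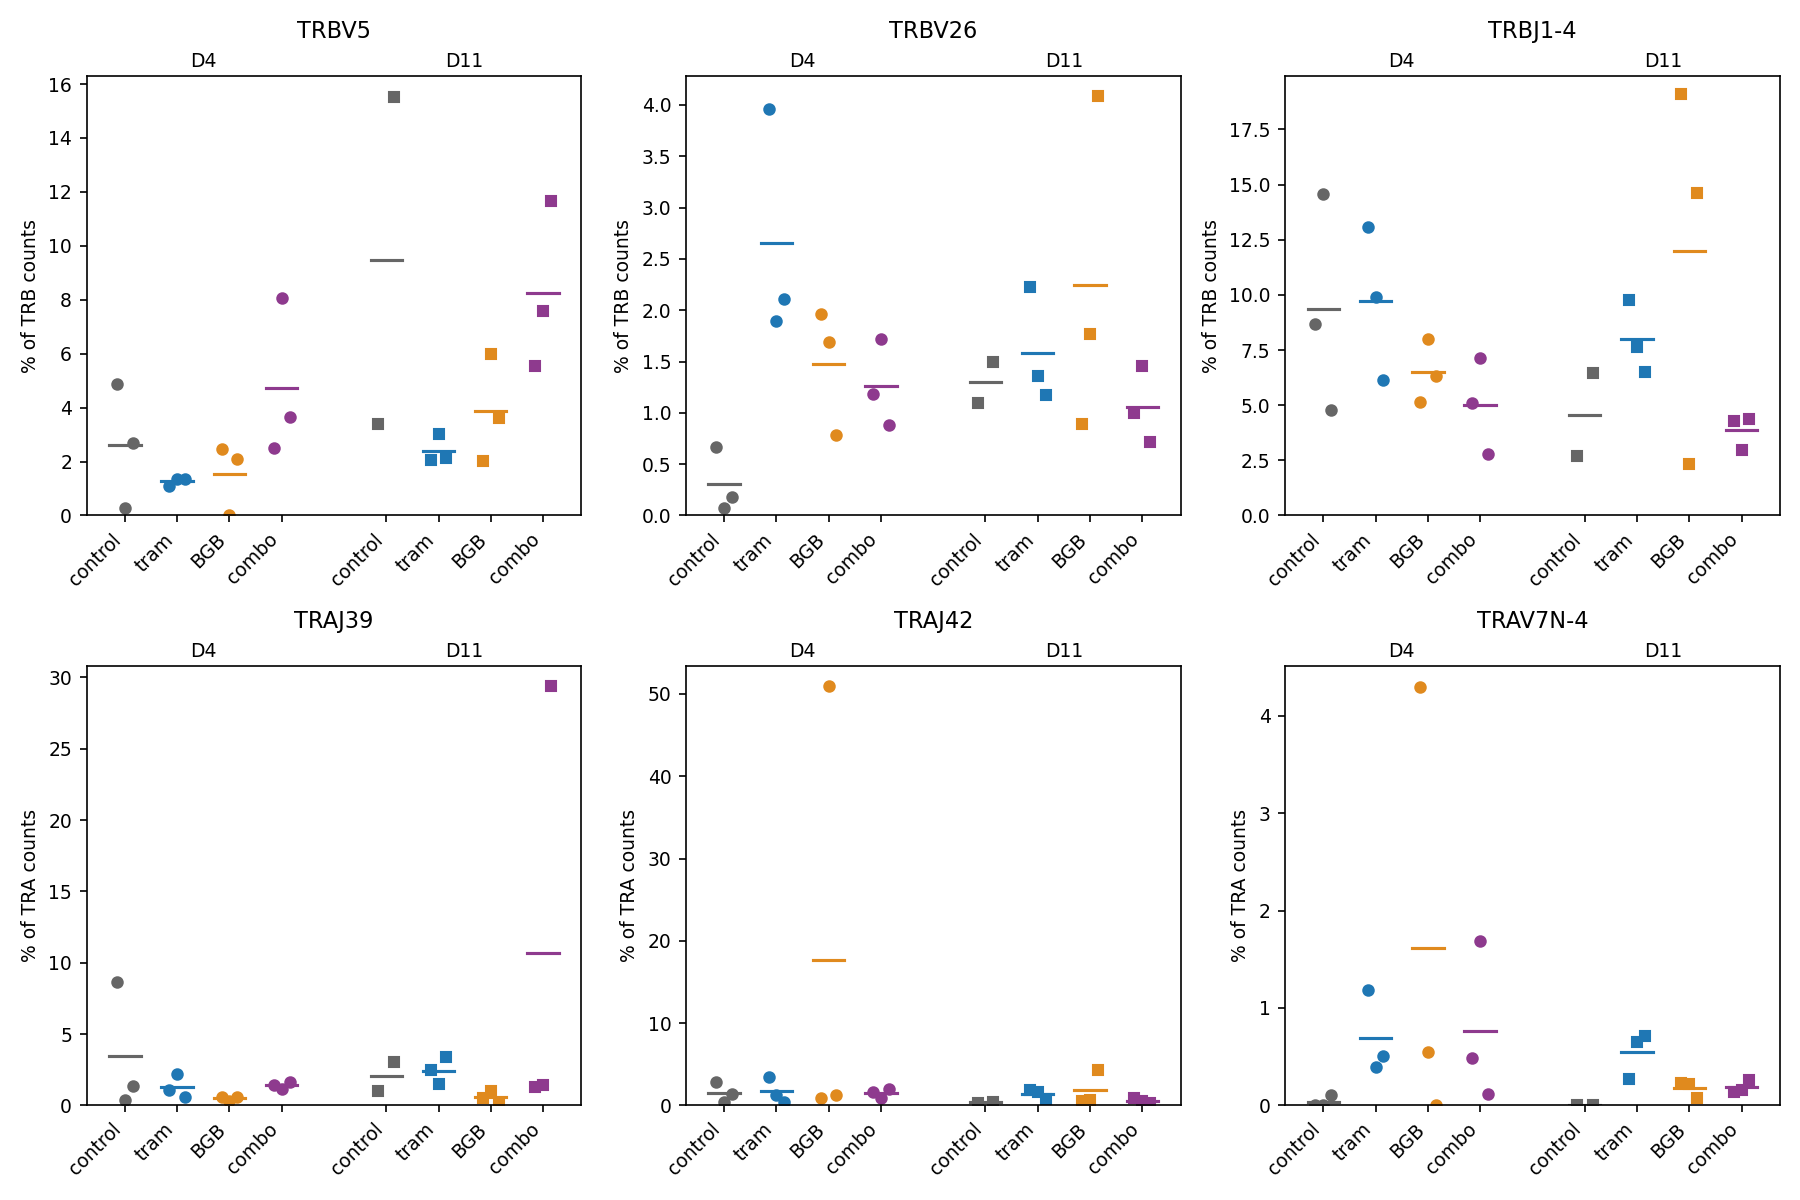
Share of chain counts in each library for 6 segments with the lowest p of their tables (circles D4, squares D11, lines the mean). TRBV5 is higher in all combination libraries than in trametinib libraries of the same day. TRAJ39 and TRAJ42 each have 1 library far above the others, at 29.4% and 50.9%, and their interactions had the same sign on both days.

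Receptors of innate-like T cells were looked at as lists. Invariant natural killer T (iNKT) cells use a fixed alpha chain that joins TRAV11 to TRAJ18, and pair it with a small set of beta chains. The iNKT alpha join had no counts in 3 of the 5 control libraries and made up 0.209% and 0.304% of TRA counts in the remaining 2. It was listed in all 18 treated libraries, at 0.211% to 1.77% with trametinib, 0.0766% to 0.710% with BGB-283 and 0.317% to 1.13% with both. The range under both drugs lay within that of trametinib. The interaction in log2 odds, -4.67 (95% interval -8.73 to -0.10, permutation p = 0.0449, adjusted p = 0.298), rests on the 0.5 counts added to the zeros of control and is no measure of size. One clonotype of this kind, TRAV11N joined to TRAJ18, was in 20 of 23 libraries, all 18 treated ones among them.

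The partner beta segments of iNKT cells (TRBV13-1, TRBV13-2, TRBV13-3, TRBV29 and TRBV1) had an interaction of -0.62 in log2 odds (95% interval -1.92 to 0.81, permutation adjusted p = 0.808). These segments are used by many conventional T cells as well. The Vbeta8 family, the 3 TRBV13 segments among them, had -0.25 (95% interval -1.42 to 1.07, permutation adjusted p = 0.894). The alpha chain of mucosal-associated invariant T cells (TRAV1 joined to TRAJ33) was listed in combination D4 replicates 2 and 3 alone, at 18 and 116 counts.

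Other properties of the repertoire had no interaction that passed, which with so few libraries does not show that they add. The mean CDR3 length over TRB counts had an interaction of -0.018 residues (95% interval -0.62 to 0.56), and over TRA counts 0.021 (95% interval -0.32 to 0.39). The effective number of V segments had -0.10 (log2) in TRB and 0.25 in TRA, and that of J segments -0.084 and 0.14. The share of TRA among all counts had an interaction of -2.97 points (95% interval -10.0 to 4.18). None of these had a permutation p below 0.05.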

How the data were processed

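TCR transcripts were measured in 23 libraries prepared with a QIAseq immune repertoire kit, per the labels. The authors deposited 1 table of counts, with a row for each chain, V, J and CDR3; the values are whole numbers with no scaling between libraries. GRCh38, which is a human build, is named in the submitters' processing notes, and tools for alignment, clonotype calling and filtering were not given in the sources. Of 64710 entries, 274 with an unresolved residue (0.0227% of counts) were left out, which left 64436. The table lists no gamma or delta chains, which were not analysed here, and the lowest count above 0 is 3. That counts are reads summed over molecules of at most about 20 reads is inferred from their pile-up at 20. Segment names were matched to gene symbols of the mouse annotation (24 of 24 TRBV, 12 of 12 TRBJ, 41 of 41 TRAJ, 68 of 143 TRAV). No coordinates were used.

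Thinned values are means of 100 seeded draws to 32534 TRB or 37504 TRA counts, or to 1749 and 2013 estimated molecules. In the synchronised permutation test the same number of libraries was exchanged between arms with and without BGB-283 at each level of trametinib and each day, so that equal BGB-283 effects cancel. It enumerates 164 arrangements at D4 and 82 at D11, and the smallest possible p is 7.44e-05 for both days. Intervals invert this test, and SEs pool the spread within 8 groups. Segments were tested with edgeR 4.0.16 (quasi-likelihood, 8 group means, chain total as library size, no TMM, filterByExpr). The SE is the log2 value over the square root of F. DESeq2 1.42.0 was an alternative. Scripts were tested on simulated data. Permutations used Python 3.11.15 and numpy 2.4.6.

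Segments named are those with the lowest p of their table or, where shown, a high mean share; clonotypes are the largest of each arm and the most widely found. Members, lists and tests were chosen with earlier results of these data known. CDR3 sequences served to tell clonotypes apart and are not printed. The 42 further measures, their alternatives and the share past rank 100 were added after values were seen. Replicate numbers were not treated as pairs in the main tests. Every same-number correlation was over 0.1 in 5 of 28 pairs of groups for TRBV and 3 of 28 for TRAV. Libraries of unlike number were not correlated for comparison, so these values cannot decide whether the numbers pair libraries. Alternatives were other scales, estimated molecules, removal of counts under 20, other permutation schemes, a replicate block, leaving out libraries, TMM, no filter, V families and clonotypes counted once.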

Additional observations from a re-analysis of the deposited data

Results flagged for a closer look

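The interaction of the drugs on the share of TRB counts in ranks past 100 and up to 1000 was -26.3 percentage points, which a permutation test of the difference between the effect of BGB-283 with and without trametinib placed at an adjusted p of 0.04997 over 42 values. Averaged over days, BGB-283 without trametinib moved this share by 7.53 points, and BGB-283 on top of trametinib by -18.8 points. The first differed by day: all 3 BGB-283 libraries lay above all control libraries at D4, and 1 of 3 did at D11. The value kept its sign in each library left out in turn, on both days and in all 6 other alternatives. Its adjusted p was over 0.05 in 16 of the 23 values with 1 library left out and in 4 of those 6 alternatives, where it ranged from 0.0687 to 0.375. Groups had 2 or 3 libraries, and no test for an outlying library was run.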

How the results depend on the processing

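Of the alternatives to the 8 main richness and clone-size interactions, 49 kept sign and side of the threshold and 9 turned sign, and with 1 library left out 160 did, 23 turned sign and 1 came to pass. Equal-count richness turned to 753 (TRB) and 503 (TRA) as numbers, to 0.36 and 0.33 without the 2 shallowest controls, and to 0.14 and 0.18 with a replicate block; detected richness turned to -0.31 and -0.28 with counts under 20 removed, and TRA clonality to -0.0021 with a Simpson-based index. The block leaves 5 contrasts and 32 sign flips, so its p cannot go below 0.0625. Leaving out 1 library gave, for TRB and TRA, -0.32 to 0.34 and -0.28 to 0.36 (detected), -0.51 to 0.15 and -0.45 to 0.17 (equal counts), and 15.1 to 22.1 points in TRB for the 10 largest; the largest TRA clonotype ran from -7.59 to 1.44 points. Ranks 11 to 100 in TRB turned to -0.12 with the block, -5.99 without the 2 shallowest controls and ran from -2.96 to 4.87 with 1 library left out, and in TRA to -2.39. Segments passing rose to 1 TRBV with TMM, to 3 TRBV, 12 TRAV and 2 TRAJ with DESeq2, to 1 TRAV with no filter, and ranged from 0 to 1 for TRBV (TRBV26 without control D4 replicate 1) and TRAV (TRAV7N-4 without control D4 replicate 3 or BGB-283 D4 replicate 3) with 1 library left out. With clonotypes counted once TRBJ1-1 turned to -0.11, TRBJ1-3 to 0.14 and TRBJ2-4 to -0.053; TRBJ1-1 ran from -0.24 to 0.78 with 1 library left out. The cause of these changes was not tested. Groups of 2 or 3 libraries limit precision, and alternatives for rank bands were chosen after seeing the data.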
